A study of Mus musculus with 4 samples.

Results

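The genes described here encode PDGF (platelet-derived growth factor) and FGF (fibroblast growth factor) ligands and their receptors, measured in colon tumour cells. The 10 genes were picked by symbol from a count table of 41457 genes, by a rule with no threshold on values but at a time when earlier results of these data were known. They are the PDGF ligand genes Pdgfa, Pdgfb and Pdgfc, the PDGF receptor genes Pdgfra and Pdgfrb, the FGF ligand genes Fgf2, Fgf7 and Fgf21, and the FGF receptor genes Fgfr1 and Fgfr2. Each had 1 row in the table. Of the 10, 7 had at least 50 counts in a library and entered the comparisons, while Pdgfb, Fgf21 and Fgfr2 stayed at 10 counts or fewer.

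Poly(A) RNA came from mouse colon tumour cells cultured in RPMI medium, as M8, M32 and M83, which are ENU mutants (ENU is the alkylating mutagen N-ethyl-N-nitrosourea), and as control cells. All 4 share the tissue label colon and the culture medium, and the sources used here give neither the mutated genes nor the parent culture, nor whether a line is 1 clone. Each line is represented by 1 column of counts, called a library below, although the series text speaks of triplicates. The ratio of a line to control therefore has no replicate check, and its interval covers counting error only. Whether a column sums or averages repeats is not stated, and the intervals hold only for summed or single-run reads.

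PDGFs and FGFs are secreted proteins that bind receptor tyrosine kinases on the cell surface. Ligand binding pairs the receptors, which then signal through adaptor proteins to the RAS-ERK and PI3K pathways, and FGFs bind heparan sulfate as a co-receptor. In the intestine the PDGF receptors mark mainly fibroblasts and perivascular cells, whereas FGF receptors occur in both the mesenchyme and the epithelium.

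The total count was between 27312207 and 28879954 in the mutant lines and 25818148 in control. Levels are given as counts and as CPM, the counts of a library after scaling all libraries to the same effective size with TMM factors. Of the 12 listed epithelial markers only 2 had at least 50 counts. The colon label names a tissue and not a cell type. The vimentin gene Vim had 124169, 129869 and 146659 counts in M8, M32 and M83 and 115473 in control, whereas Epcam, Cdx2 and Muc2 had 0 counts in all 4. Krt20 and Krt18, which encode keratins of simple epithelia, were the epithelial markers that were abundant. Krt20 had 3306, 1008 and 3667 counts in M8, M32 and M83 and 1914 in control, and Krt18 1794, 992 and 911 against 710. The epithelial list summed to 180, 73.8 and 160 CPM in M8, M32 and M83 and to 104 CPM in control. The fibroblast marker Thy1 had 0 counts throughout, Fap had at most 5, Lum at most 8 and Dcn at most 48. Of the 11 listed fibroblast markers 7 had at least 50 counts, and their list summed to between 7602 and 8602 CPM in the lines and to 6974 CPM in control. Vim, which is on this list, made up most of the sum in every library. The leukocyte markers Cd3e, Adgre1 and Csf1r and the endothelial markers Emcn and Cldn5 had 0 counts in every library, while Cd14 was the leukocyte marker that was abundant, with 1447, 1348 and 1074 counts in M8, M32 and M83 and 850 in control. In bulk RNA, fewer cells of a type and less RNA per cell cannot be told apart.

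All 7 measurable members lay above control in each of M8, M32 and M83. Over the 11156 genes with at least 50 counts in some library, 22.0% lay above control in all 3 lines. For 6 of the 7 members, all but Pdgfa, the exact 95% interval of every line's ratio also lay above 1, against 10.8% of genes. These genes are not independent of each other, and the 3 comparisons share the control library, so a low control value raises all of them. The excess was moderate in size: in M8 the members' median log2 ratio was 1.05, in M32 0.56 and in M83 0.81. Over all tested genes the median was 0.02, -0.00043 and 0.01 for the same lines.

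**Figure D1:**
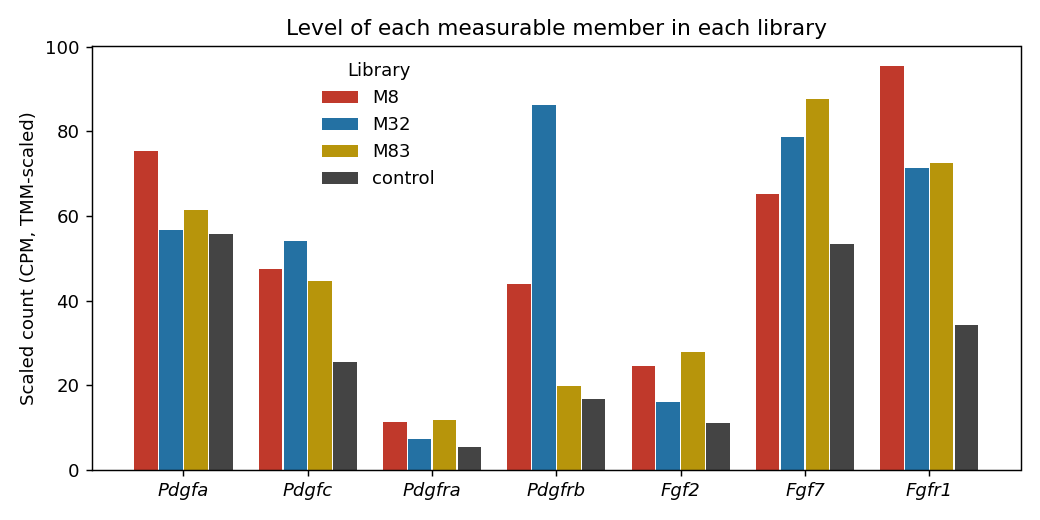
The bars show the scaled count (CPM) of the 7 measurable members in M8, M32, M83 and control, 1 library each. Every control bar is the lowest of its gene, and the M32 bar of Pdgfrb at 86.3 CPM stands far above its control bar at 16.6 CPM.

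Among the PDGF ligands, Pdgfc showed the clearest excess and Pdgfa was close to control. Pdgfa (chromosome 5, 138976014 to 138997370, minus strand, GRCm38) encodes the A chain, which signals through the alpha receptor. It had 2145 counts in M8, 1539 in M32 and 1774 in M83, against 1420 in control, which is 75.4, 56.8 and 61.4 CPM against 55.7 CPM. M8 was the highest library at 1.35 times control (95% exact interval 1.27 to 1.45), and M32 could not be told from control by counting error (ratio 1.02, 0.948 to 1.10). The antisense gene 6330403L08Rik covers 26.1% of the Pdgfa exons, and without a stated strand setting reads of the shared part cannot be assigned. It had 376, 809 and 462 counts in M8, M32 and M83 and 643 in control, so it lay below control in M8, where Pdgfa was highest.

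Pdgfc (chromosome 3, 81036416 to 81214040, plus strand) encodes a ligand that is secreted latent and becomes active once its CUB domain is cut off. It had 1354 counts in M8, 1464 in M32 and 1293 in M83, against 650 in control. The lines were close to each other, with the highest 1.21 times the lowest, and all were well above control. M32 stood at 2.12 times control (1.93 to 2.33), M8 at 1.87 times (1.70 to 2.05) and M83 at 1.76 times (1.60 to 1.93). The order was M32, M8, M83 and control, and M8 and M83 did not differ beyond counting error. Per kilobase of exon, the level of Pdgfa was 2.59, 1.72 and 2.24 times that of Pdgfc in M8, M32 and M83, and 3.56 times in control.

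Pdgfb (chromosome 15, 79995874 to 80014977, minus strand), whose B chain binds either PDGF receptor, was near the detection limit. It had 0 counts in M8, 10 in M32 and 2 in M83, against 2 in control. The interval of the M32 ratio ran from 1.002 to 44.2 and so left out 1 only narrowly, on 10 counts against 2, and Pdgfb was below the minimum of 50 counts. Pdgfd, the remaining PDGF ligand gene, had 0 counts in all 4 libraries, which allows up to 0.105, 0.111 and 0.104 CPM in M8, M32 and M83 and 0.118 CPM in control.

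The PDGF receptor genes differed from each other in which line was highest. Pdgfrb (chromosome 18, 61045150 to 61085061, plus strand) encodes the beta receptor, a marker of pericytes and activated fibroblasts. It had 1250 counts in M8, 2341 in M32 and 574 in M83, against 424 in control. M32 was by far the highest library, M8 was intermediate and M83 was little above control, and no neighbours in this order had a ratio interval that reached 1. The ratio to control was 2.64 in M8 (2.37 to 2.96), 5.19 in M32 (4.68 to 5.77) and 1.20 in M83 (1.05 to 1.36). It was the member that varied most among the mutant lines, with M32 at 4.35 times M83.

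Pdgfra (chromosome 5, 75152292 to 75198215, plus strand), the alpha receptor gene, had 318 counts in M8, 196 in M32 and 339 in M83, against 137 in control. Here M8 and M83 were high and could not be told apart by counting error, while M32 lay between them and control. The ratio to control was 2.08 in M8 (1.70 to 2.56), 1.35 in M32 (1.08 to 1.69) and 2.18 in M83 (1.79 to 2.68). As a level per kilobase of exon, Pdgfra was 0.139, 0.0458 and 0.323 times Pdgfrb in M8, M32 and M83, against 0.177 times in control. The balance of the receptor transcripts thus lay furthest toward the beta receptor in M32 and least so in M83. Pdgfrl, which encodes a receptor-like protein without a kinase, had 0 counts throughout.

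Single pericyte, smooth muscle and fibroblast markers followed Pdgfrb, and others did not. The summed level of the 10 listed markers was 8.92, 20.1 and 3.46 CPM in M8, M32 and M83, against 2.43 CPM in control, the same order of libraries as for Pdgfrb. Only 2 of the 10, Acta2 and Des, had at least 50 counts in a library. In the mutant lines most of the sum was Acta2, the smooth muscle actin gene, with 199, 474 and 53 counts in the lines and 6 in control. The defining pericyte marker Rgs5 had 0 counts in every library, and Kcnj8 and Abcc9 had at most 2. Des had 42, 61 and 9 counts in M8, M32 and M83 and 34 in control, so M83 was lowest. Cspg4, a pericyte proteoglycan gene, ran the other way, with 12, 4 and 34 counts in the lines and 18 in control. Col3a1, a fibrillar collagen gene from the fibroblast list, had 7748, 12998 and 2047 counts in M8, M32 and M83 and 1748 in control. Other genes of that list had another order: Pdpn had 1453, 629 and 2824 counts in the lines and 931 in control, and Prrx1 4016, 3298 and 6176 against 3715. Col1a2 was nearly level, at 52481, 51697 and 43937 counts in the lines and 43464 in control. Col1a1 was above control in each line, with 25288, 33405 and 32552 counts against 10970. Twist1 was below control in each, at ratios of 0.69, 0.77 and 0.915 in M8, M32 and M83. Dcn stayed under 50 counts but was above control in each line, with 13, 48 and 29 counts in M8, M32 and M83 against 2. DESeq2 called 1 of the 11 genes of the fibroblast list, and 0.188% of all genes with a p-value. The part of these genes in the Pdgfrb values was not tested.

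**Figure D2:**
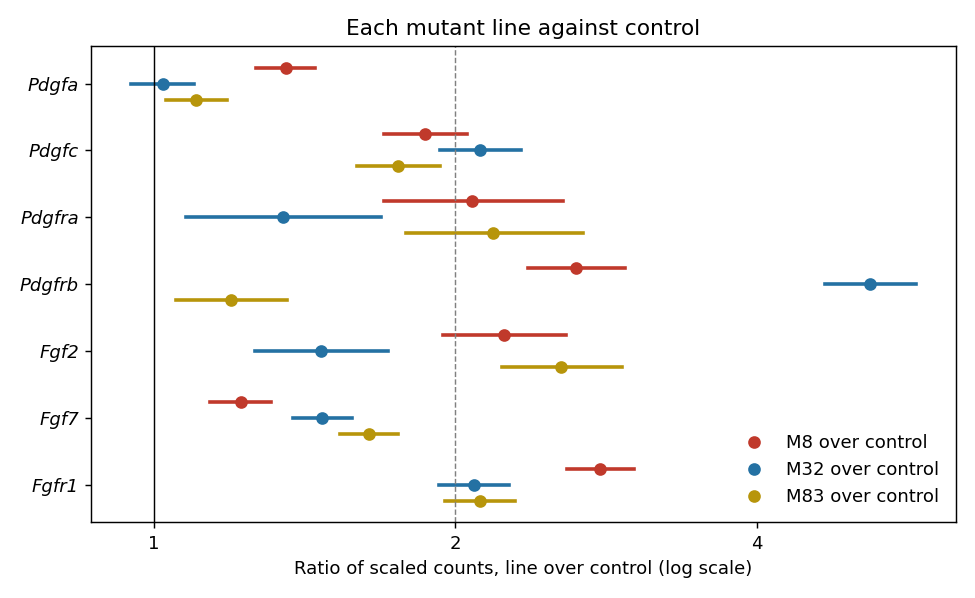
Points give the ratio of TMM-scaled counts of each mutant line over control on a log axis, and bars the exact 95% interval for counting error. The solid line marks a ratio of 1 and the dashed line a ratio of 2. Pdgfrb spreads from 1.20 in M83 to 5.19 in M32, whereas the 3 Fgfr1 points lie between 2.09 and 2.79.

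Of the FGF ligands, Fgf2 and Fgf7 were expressed and Fgf21 was almost silent. Fgf2 (chromosome 3, 37348346 to 37410108, plus strand), a heparin-binding mitogen of mesenchymal cells, had 696 counts in M8, 436 in M32 and 807 in M83, against 279 in control. M83 was highest, followed by M8, M32 and control, and each neighbouring pair differed beyond counting error. Its ratio to control was 2.24 in M8 (1.94 to 2.58), 1.47 in M32 (1.26 to 1.72) and 2.55 in M83 (2.23 to 2.94). Nudt6, the antisense gene that shares 9.4% of the Fgf2 exons, had 94, 107 and 122 counts in M8, M32 and M83 and 91 in control, and each of its ratio intervals included 1.

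Fgf7 (chromosome 2, 126034658 to 126091185, plus strand) encodes keratinocyte growth factor, a mesenchymal ligand for the epithelial splice form of the receptor encoded by Fgfr2. It had 1858 counts in M8, 2136 in M32 and 2536 in M83, against 1364 in control. The libraries were ordered M83, M32, M8 and control, with every neighbour apart by more than counting error. In M83 the ratio was 1.64 (1.53 to 1.75), in M32 1.47 (1.38 to 1.58) and in M8 1.22 (1.14 to 1.31), so no line reached 2-fold. Per kilobase of exon, the level of Fgf7 was 5.57, 10.2 and 6.56 times that of Fgf2 in M8, M32 and M83, and 10.2 times in control.

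Fgf21 (chromosome 7, 45613886 to 45615490, minus strand) encodes an endocrine FGF that signals through a receptor paired with beta-Klotho. It had 10 counts in M32 and 0 in M8, M83 and control. The ratio interval of M32 over control started at 2.11, with no upper bound because control had none, and M32 stood at only 0.369 CPM. Klb, the beta-Klotho gene, had 12, 12 and 4 counts in M8, M32 and M83 and 8 in control, and Kl had at most 1.

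Promoter sequences are shown for Fgf2 and Pdgfra, whose profiles were alike across the libraries, for Pdgfc, the ligand gene with the clearest excess, and for the nearly silent Fgf21. Each run covers 250 bases before to 50 after the RefSeq start (build GRCm38.p6), 5′ to 3′ on the gene's strand. Capitals mark matches, on either strand, to GGGCGG for the GC box, TATAAA for the TATA box, TGANTCA for the AP-1 site or GCGNGGGCG for the EGR1 site. The letters of the GC box and the EGR1 site can overlap.
Fgf2, chr3:37348403-37348702, plus strand: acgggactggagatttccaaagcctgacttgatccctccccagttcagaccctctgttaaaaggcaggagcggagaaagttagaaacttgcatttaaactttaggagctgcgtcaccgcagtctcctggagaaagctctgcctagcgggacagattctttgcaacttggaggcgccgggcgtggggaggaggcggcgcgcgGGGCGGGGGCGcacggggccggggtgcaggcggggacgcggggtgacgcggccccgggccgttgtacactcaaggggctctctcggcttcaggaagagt
Pdgfra, chr5:75152001-75152300, plus strand: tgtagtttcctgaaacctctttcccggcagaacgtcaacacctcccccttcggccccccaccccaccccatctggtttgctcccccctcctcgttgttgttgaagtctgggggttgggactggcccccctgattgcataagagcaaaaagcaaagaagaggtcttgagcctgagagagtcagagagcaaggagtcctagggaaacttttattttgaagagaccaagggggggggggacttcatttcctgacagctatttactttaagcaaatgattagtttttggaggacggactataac
Pdgfc, chr3:81036166-81036465, plus strand: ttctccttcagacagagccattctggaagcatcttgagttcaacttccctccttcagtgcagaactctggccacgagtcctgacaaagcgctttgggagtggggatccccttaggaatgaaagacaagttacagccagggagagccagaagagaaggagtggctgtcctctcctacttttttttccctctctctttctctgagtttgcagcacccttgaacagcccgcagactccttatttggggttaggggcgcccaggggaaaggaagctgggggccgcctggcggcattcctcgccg
Fgf21, chr7:45615441-45615740, minus strand: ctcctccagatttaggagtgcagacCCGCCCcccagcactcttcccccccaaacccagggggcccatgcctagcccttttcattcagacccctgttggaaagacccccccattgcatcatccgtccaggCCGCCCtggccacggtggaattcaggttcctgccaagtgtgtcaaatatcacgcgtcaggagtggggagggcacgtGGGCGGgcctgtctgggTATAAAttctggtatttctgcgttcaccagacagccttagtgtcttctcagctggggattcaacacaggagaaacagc

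The Fgf2 promoter had a GC box and an EGR1 site that overlap in 1 run of capitals, and no TATA box. Over all 32851 promoters of this length in the table, 35.7% held a GC box, 13.6% a TATA box, 7.81% an AP-1 site and 5.55% an EGR1 site. Pdgfra and Pdgfc held none of these 4 letter patterns in this window, and Fgf21 held 3 GC boxes and a TATA box. The share of G and C was 62.7% in Fgf2, 51.0% in Pdgfra, 55.0% in Pdgfc and 58.0% in Fgf21, against a median of 52.7% over all promoters. Fgf2 and Pdgfra thus had similar profiles over the libraries with promoters of different composition. A match describes letters only. For Pdgfa, Fgf7 and Fgfr2 the table also held promoters, which are not shown.

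Fgfr1 showed the most even excess of the receptors. Fgfr1 (chromosome 8, 25513654 to 25575718, plus strand) encodes the main FGF receptor of mesenchymal cells. It had 2717 counts in M8, 1937 in M32 and 2094 in M83, against 873 in control. The lowest mutant line was more than 2 times control, and the lines lay within 1.34 times of each other. The ratio was 2.79 in M8 (2.58 to 3.01), 2.09 in M32 (1.93 to 2.26) and 2.12 in M83 (1.96 to 2.29), and M32 and M83 did not differ beyond counting error. Fgfr2 (chromosome 7, 130162451 to 133123350, minus strand, a span that the annotation extends across neighbouring genes) had 0 counts in M8, M32 and M83 and 2 in control. The gene of the receptor on which Fgf7 acts thus had at most 2 counts in any library.

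**Figure D3:**
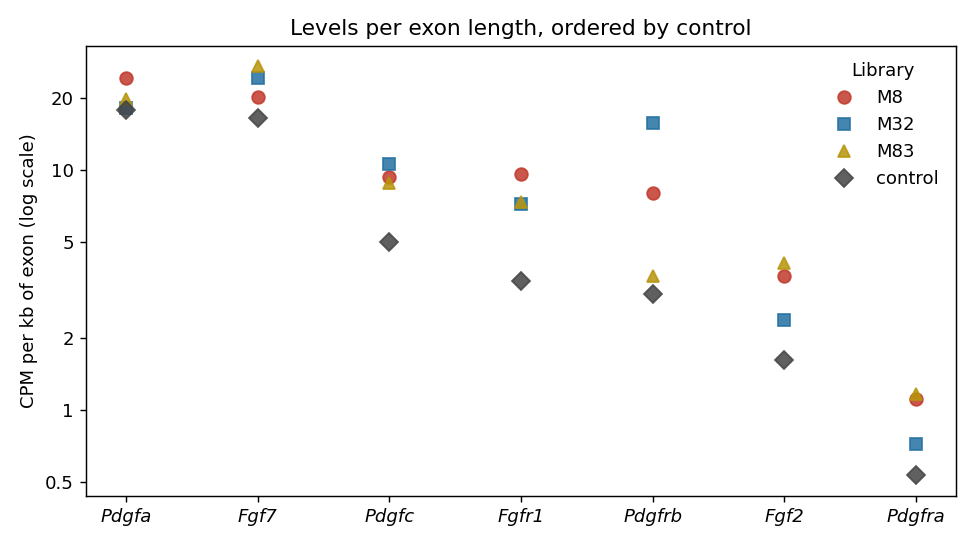
Levels per kilobase of exon (CPM per kb, log axis) of the 7 measurable members, ordered by their control value, with 1 symbol per library. Pdgfa and Fgf7 are the highest members in every library, and Pdgfra is the lowest, between 0.721 and 1.17 in the lines and 0.536 in control.

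Read per exon length, the ligand genes Pdgfa and Fgf7 outranked every receptor gene in each library. Pdgfa and Fgf7 were at 24.2 and 20.1 CPM per kb in M8, 18.2 and 24.2 in M32, 19.7 and 27.0 in M83, and 17.9 and 16.5 in control. Fgfr1 was at 9.67, 7.23 and 7.33 CPM per kb in M8, M32 and M83 and at 3.47 in control. Pdgfrb exceeded Fgfr1 only in M32, where it reached 15.8 CPM per kb. These lengths count the exons of all annotated isoforms, so the level of a gene with long rare isoforms is understated.

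By a rule of size, set at a log2 ratio of at least 1 with at least 50 counts in the higher library and an interval that leaves out 1, 4 of the 7 members were at least 2-fold higher in M8. These were Pdgfra, Pdgfrb, Fgf2 and Fgfr1, and 3.73% of the 10818 genes that met the count minimum were higher in M8 by the same rule. In M32 the rule held for Pdgfc, Pdgfrb and Fgfr1, against 4.86% of genes, and in M83 for Pdgfra, Fgf2 and Fgfr1, against 5.19% of genes. No member was lower by this rule in any line, where over all genes 2.05% (M8), 1.14% (M32) and 1.27% (M83) were lower. Fgfr1 alone met it in all 3 lines, as did 1.0% of genes. At a 4-fold threshold with an interval that leaves out 2-fold, Pdgfrb in M32 was the one member to pass, against 1.13% of genes. In M8 and M83, where 0.795% and 1.08% of genes passed, no member did.

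With the 3 mutant lines taken as 1 group, no member passed. The edgeR quasi-likelihood F-test has 2 residual degrees of freedom, takes its spread from these different lines and assumes that the lone control varies like them. The test also draws each gene's spread toward a trend over all genes, so its p-values rest on more than that gene's own spread. It called 1 of 13576 genes, 0.00737%, and 0 of the 7 members. At an unadjusted p under 0.05 it listed 3 members, Fgf2, Pdgfc and Fgfr1, against 3.3% of all genes. Fgfr1 averaged 79.8 ± 13.6 CPM in the lines (SD, n = 3) and 34.2 CPM in control, 1.22 apart on the log2 scale (SE 0.281, adjusted p = 1.00 in edgeR). DESeq2, the alternative tool, called Fgfr1 (log2 difference 1.22, SE 0.312, adjusted p = 0.0327) and no other member. It called 0.188% of the 21249 genes with a p-value. Some of these, among them Pdgfb, Fgf21 and Fgfr2, got no adjusted p and could not be called, so the share of callable genes is higher.

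Pdgfc averaged 48.8 ± 4.75 CPM in the lines (SD, n = 3) and 25.5 CPM in control, a log2 difference of 0.94 (SE 0.247). Fgf2 averaged 22.8 ± 6.08 CPM against 10.9 CPM, a difference of 1.06 (SE 0.381). Pdgfrb had the largest log2 difference, 1.59, but also the largest error (SE 0.769), since its mean of 50.03 CPM in the lines carried an SD of 33.7 CPM. Its difference depended on M32, and without that line it was 0.91. The log2 differences of Pdgfra, Fgf7 and Pdgfa were 0.90 (SE 0.418), 0.53 (SE 0.259) and 0.21 (SE 0.255), and that of Pdgfa was 0.09 without M8. Each of these members had an edgeR adjusted p of 1.00.

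Median ratios of the chromosomes that hold the members were near 0, and those of closer neighbours varied by gene. The tested genes of chromosomes 2, 3, 5, 8 and 18, which hold the 7 measurable members, had median log2 ratios between -0.06 and 0.03 in every line. Within 1 Mb of Fgfr1, 25 tested genes had medians of 0.01, 0.06 and 0.03 in M8, M32 and M83. Around Pdgfrb, 19 tested genes had medians of -0.05, -0.01 and -0.12 in the same lines. The 12 tested neighbours of Fgf2 had medians of -0.06, 0.12 and 0.25 in M8, M32 and M83, where Fgf2 itself was at 1.155, 0.55 and 1.35. The 32 neighbours of Pdgfa had medians of 0.15, -0.10 and -0.03, where Pdgfa was at 0.44, 0.03 and 0.14. A regional part in the member values was not tested. For Pdgfra and Fgf7 the medians lay between -0.13 and 0.02. Pdgfc had a single tested gene within 1 Mb, Ctso, which was lower in M8 at -1.19 and higher in M32 and M83 at 0.43 and 0.37.

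Other genes followed the members closely over the 4 libraries. Likeness was measured as the Euclidean distance between profiles of log2 CPM, each centred on its own mean, among 9374 genes, and 4 libraries are few for such a match. The nearest to Pdgfc were Tnfrsf11b (distance 0.0532), Col4a5 and Ephx1, and Tnfrsf11b, the osteoprotegerin gene, had 167, 180 and 154 counts in M8, M32 and M83 and 76 in control. Fgfr1 was nearest to Crip1 (0.083), Ptgs1, a cyclooxygenase gene, and Slc9a3r2. Pdgfra lay near Fsd1l (0.113), Ap5b1 and Rap1gap. The nearest genes to Fgf2 were Cadm4 (0.132), Gcnt1 and Pdgfra itself (0.163). Pdgfrb had no match as close, with Glipr2 at 0.238, Apol10b at 0.263 and Insig1, a sterol-sensing regulator, at 0.399. Pdgfa and Fgf7 varied too little over the libraries to enter this search.

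The rest of both families was mostly silent. Of the 18 secreted FGF genes, 7 had 0 counts in all libraries, and Fgf10 was the one ligand beside Fgf2 and Fgf7 with at least 50 counts. Fgf10, which acts on the same epithelial receptor form as Fgf7, had 822 counts in M8, 713 in M32 and 1208 in M83, against 536 in control. Its ratio to control was highest in M83, at 1.99, and was 1.37 in M8 and 1.25 in M32. Fgfrl1, a receptor without a kinase domain, was nearly level at 372, 349 and 379 counts in the lines and 295 in control. None of the 4 intracellular FGF homologous factors reached 50 counts.

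Proteins that bind or release the ligands varied by gene. The PDGF activation and co-receptor list had 5 of 6 genes with at least 50 counts, 3 of them above control in all 3 lines, where 22.0% of all genes were. Nrp1, a co-receptor for growth factors, had log2 ratios of 0.29, 0.75 and 0.55 in the lines, and Lrp1, an endocytic receptor that associates with the beta PDGF receptor, 0.35, 0.73 and 0.47. Plat, whose protease product activates PDGF-CC, had 131, 211 and 111 counts in the lines and 114 in control. No gene of this list reached the 2-fold rule, by which 3.73%, 4.86% and 5.19% of all genes were higher in M8, M32 and M83.

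Heparan sulfate genes had 15 of 23 genes with at least 50 counts, 6 above and 1 below control in all 3 lines, against 22.0% and 22.1% of all genes. In edgeR 0 of them passed, and 1, the perlecan gene Hspg2, had an unadjusted p under 0.05, against 3.3% of all genes. Gpc6, a glypican gene, was above 2-fold in each line with 75, 75 and 79 counts in M8, M32 and M83 and 28 in control. Sulf2, which encodes an enzyme that trims sulfate from heparan sulfate, had 120, 127 and 336 counts in the lines and 82 in control, so M83 stood apart from the rest. Flrt2, a membrane protein that can bind FGF receptors, had its highest value in the same line, with 902, 1084 and 2380 counts in M8, M32 and M83 and 619 in control. Flrt3 was lower in M32 alone, at 38 counts, against 104 in M8, 133 in M83 and 95 in control.

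Adaptors and effectors of the receptors were close to control. Of 17 genes with at least 50 counts, 3 lay above and 1 below control in all 3 lines, against 22.0% and 22.1% of all genes. None met the 2-fold rule in any line, by which 3.73%, 4.86% and 5.19% of genes were higher in M8, M32 and M83. The list's median log2 ratio was 0.04, -0.01 and 0.07 in M8, M32 and M83. Frs2, the docking protein of FGF receptors, was at -0.14, 0.10 and 0.60. Rasa1, a RAS GTPase-activating protein, varied most, with 5421, 2199 and 3090 counts in M8, M32 and M83 and 3645 in control.

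Genes that respond to receptor signalling were not higher than control in their medians. Of the 10 FGF-ERK target genes, 0 lay above and 4 below control in all 3 lines, and of the 9 measurable feedback inhibitors, 1 lay above and 4 below. Among all genes 22.0% lay above and 22.1% below. The target list's median log2 ratio was -0.15, -0.67 and -0.18 in M8, M32 and M83, and that of the feedback inhibitors was -0.06, -0.24 and -0.15. In edgeR 0 of either list passed, and DESeq2 called none of them either. At an unadjusted p under 0.05 edgeR listed 1 of these genes, Egr1, against 3.3% of all genes, and DESeq2 listed 0. M32 had the lowest median of both lists. Among the mutant lines, M32 had the highest ratio to control for Pdgfrb and Pdgfc, and the lowest for Fgf2, Fgfr1, Pdgfra and Pdgfa. A link between the members and these lists was not tested. Egr1, an immediate early transcription factor gene, had 8137, 3253 and 12461 counts in the lines and 18871 in control, and Fos 871, 240 and 520 against 587.

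Errfi1, a feedback inhibitor directed mainly at the EGF receptor, had 6760, 2514 and 6092 counts in M8, M32 and M83 and 6964 in control. Spry4, a Sprouty gene induced by FGF signalling, had 3046, 1472 and 2129 counts in the lines and 2633 in control. Dusp6, the ERK phosphatase gene, was at log2 ratios of 0.14, -0.35 and 0.37 in these lines. By the 2-fold rule, 1 target gene was lower in M8, 2 targets and 1 feedback inhibitor in M32, and none in M83, where 2.05%, 1.14% and 1.27% of all genes were lower. Egr1 and other genes of these lists were already known to be lower in these libraries when the lists were drawn up.

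**Figure D4:**
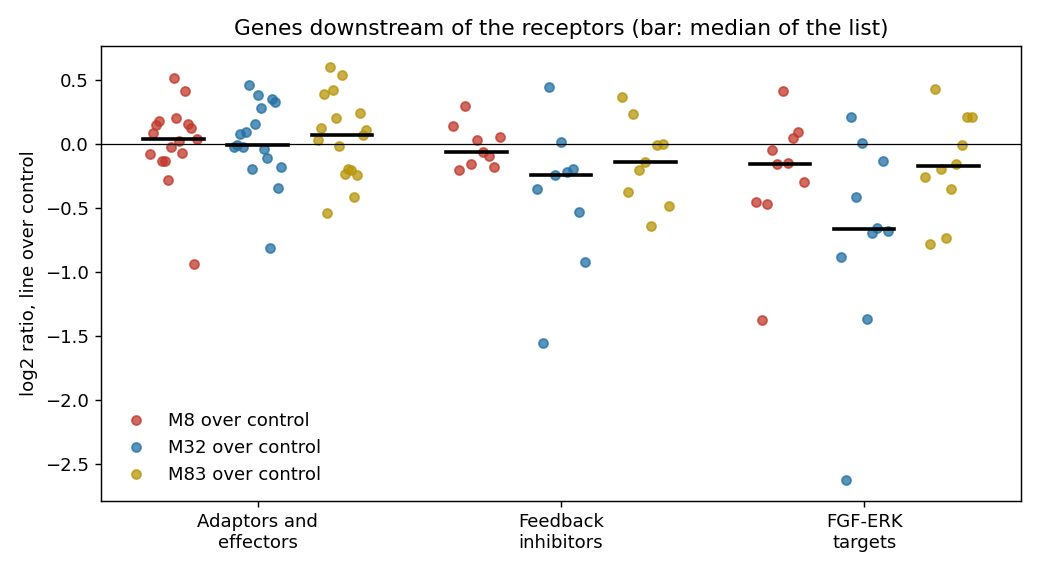
Each point is the log2 ratio of a gene in 1 mutant line over control, for adaptors and effectors, feedback inhibitors and FGF-ERK targets with at least 50 counts, and black bars are list medians. The medians of the adaptors lie near 0, and the lowest is that of the targets in M32 at -0.67.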

How the data were processed

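The deposited table holds unnormalised whole-number read counts for each gene, in 1 column per sample. Per the submitters' processing notes, the genome build was GRCm38. RNeasy Micro extraction, NEBNext poly(A) selection and the NEBNext Ultra II kit are per the labels' protocols. For the aligner, counter, annotation and strand setting, the sources used here give nothing.

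Counts were scaled with TMM factors (edgeR 4.0.16, R 4.3.3). Log2 ratios used a prior count of 2, and intervals are exact 95% Clopper-Pearson intervals. Reads carry no molecular identifiers, so intervals and the upper limit of 3 counts taken for genes without counts cover counting error only. The mutant lines were compared with control by the quasi-likelihood F-test of edgeR (filterByExpr, 13576 genes, Benjamini-Hochberg adjusted p under 0.05), with DESeq2 1.42.0 as the alternative. Nothing in the sources says whether the lines came from separate cultures, so p-values measure the spread between these lines only, moderated over all genes.

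Positions and exon lengths came from GENCODE vM21 (GRCm38), which held 41434 of the 41457 row identifiers. Promoters came from RefSeq (GRCm38.p6), with 7 of the 10 members matched by symbol. At most 3.29% of the 31-letter words of a member's transcripts (Fgf2) occurred in another gene. In simulated data for mutant lines against control on 13203 genes, the test recovered 16% of genes changed 2-fold and 96% of those changed 4-fold, with 16 false calls. The changed genes were drawn above a minimum mean level and were given the same fold in every line. These shares therefore do not carry over to genes whose lines differ, such as Pdgfrb.

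The members, the gene lists and the rule for naming genes were chosen with earlier results of these data known. The rule named every member, other ligands and receptors with at least 50 counts, up to 4 genes per list by range of log2 CPM, and the 3 nearest profiles. Not every gene it named is reported, and Col3a1, Col1a1, Col1a2, Twist1, Dcn, Lum, Pdpn, Prrx1, Acta2, Des, Cspg4, Klb, Kl, Ctso, Nudt6 and 6330403L08Rik were chosen after their values were seen.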

Additional observations from a re-analysis of the deposited data

How the results depend on the processing

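All 84 recomputed line-over-control ratios of the 7 members, under DESeq2 size factors, library size alone and prior counts of 0.5 and 5, kept their direction, and the largest spread between settings was 0.078 on the log2 scale. The numbers of members past the 2-fold rule (4, 3 and 3 for M8, M32 and M83) and the order of libraries for each member were the same under each alternative run. Of 49 refits of member differences in the grouped test, 48 kept their direction and their side of the threshold, and Fgfr1 passed in DESeq2. The number of genes called over the whole table was 1 in edgeR, 40 in DESeq2 and 2 with no filter on low counts, and it was 1 without any single line. With a minimum of 20 counts in place of 50, the 2-fold rule listed 635 genes as higher and 361 as lower in M8 (403 and 222 at 50), 220 as lower in M32 (124) and 240 as lower in M83 (139), since more genes entered. Leaving out 1 line moved the log2 difference of Pdgfrb between 0.91 and 1.96. No paired analysis was possible because control has 1 library and shares fewer than 2 replicate numbers with the mutant lines. Depth limits Pdgfb, Fgf21 and Fgfr2, and 1 library per line limits all other values.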
